A study of Mus musculus with 4 samples.

Results

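Kat6a, Kat6b and the genes of the subunits that join them were examined in mouse embryonic stem (ES) cells labelled as KAT6A knockout (KO) and in control cells. The 7 members were taken by gene symbol from the count tables, which list 41543 symbols: Kat6a and Kat6b, the scaffold genes Brpf1, Brpf3 and Brd1, and the accessory subunit genes Ing5 and Meaf6. All 7 were found, and all 7 were among the 16112 genes expressed highly enough to be tested. All cells were of the line E14TG2a, an established male mouse ES cell line, grown with serum and the cytokine LIF on gelatin. The 2 control libraries carry the genotype label Control. The 2 libraries labelled KAT6A KO came from cells edited with CRISPR/Cas9, and the sources used here give neither the edited position nor the number of clones. Because Kat6a RNA did not fall in 1 of them, they are called the libraries labelled KO 1 and KO 2 below. Nothing in the labels ties the 2 libraries of a group to separate cultures, so the p-values cover only the spread among these 4 libraries, which may be technical.

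KAT6A (MOZ) and KAT6B (MORF) are paralogous lysine acetyltransferases of the MYST family. Each works in a complex in which a BRPF scaffold protein holds the enzyme together with ING5 and MEAF6, and the complex acetylates histone H3 at promoters and enhancers. KAT6A is best known for keeping Hox genes active in embryos and for its need in blood stem cells, and KAT6B for its part in neural development. The title of the study concerns the winged helix domain of KAT6A, which binds unmethylated CpG islands.

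The libraries held 27494041 to 37354623 counts. The 8 ES cell markers examined, among them Pou5f1, Sox2 and Nanog, lay between 218 and 1460 CPM (counts scaled to library size) in every library. Their summed level was 4162 and 4312 CPM in the controls and 4981 and 5554 CPM in the libraries labelled KO 1 and KO 2, and 1 of the 8, Esrrb, was called higher. Of 6 feeder fibroblast markers, Col3a1, Dcn and Lum stayed under 0.1 CPM and 2 others reached at least 1 CPM in every library. The summed level of the 6 was 8.91 to 12.1 CPM over the libraries, and 0 of them were called in either direction. Endoderm markers were unevenly present: the summed level of 5 of them was 138 and 143 CPM in controls 1 and 2, 26.6 in the library labelled KO 1 and 61.5 in the library labelled KO 2, and 3 of the 5 were called lower. In the controls 4 neural markers summed to 61.4 and 69.3 CPM. They summed to 112 and 95.9 CPM in the libraries labelled KO 1 and KO 2, and 3 of the 4 were called higher. Of 3 mesoderm markers 0 were called, and of 3 trophoblast markers 1, Hand1, was called lower. Over all tested genes 5.76% were called higher and 8.57% lower, so a count of 0 in such short lists is no result. In such bulk samples a change in the number of cells of a type and a change in RNA per cell cannot be told apart, and the part of these markers in the results below was not tested.

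Kat6a, the gene named as edited, lay above both controls in the library labelled KO 1 and below both in the library labelled KO 2. Kat6a is a protein-coding gene on the plus strand of chromosome 8, from 22859535 to 22943259 in GRCm38 (GENCODE M21). It was counted 5143 and 5292 times in the controls, 7376 times in the library labelled KO 1 and 2375 times in the library labelled KO 2. Scaled to library size these are 145 and 143 CPM, 242 CPM and 86.4 CPM. The controls thus lay close together, and the KO libraries stood on either side of them, at 1.69 and 0.601 times the control mean. The pooled log2 fold change, KO over control, came to 0.19 ± 0.41 (SE; edgeR adjusted p = 0.772). It was -0.74 when the library labelled KO 1 was left out and 0.75 when the library labelled KO 2 was left out. The deposited counts cover the whole gene and do not resolve exons, so they do not check the labels, on which each direction given here depends.

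The gap between the KO libraries was 2.81-fold for Kat6a, with a 95% counting interval of 2.68 to 2.94 (exact binomial, counting error only). Between the controls the ratio was 1.01, with an interval of 0.975 to 1.05. Among the 4760 tested genes whose mean reached 50 CPM, 5 genes (0.105%), Kat6a among them, had a gap at least as wide between the KO libraries, and over all 16112 tested genes 214 did (1.33%). The other 4 of the 5, which were singled out after their values were seen, all lay higher in the library labelled KO 2. They were Lefty1, a Nodal antagonist, Anxa2, an annexin, Tinagl1, a basement membrane protein, and Clu, which encodes clusterin. Anxa2, for instance, had 26.8 CPM in the library labelled KO 1 and 81.6 CPM in the library labelled KO 2, against 116 and 115 CPM in controls 1 and 2. In the direction of Kat6a, 4 genes of at least 50 CPM were at least 2-fold higher in the library labelled KO 1 than in the library labelled KO 2. These were Kat6a, Scml2 (24.6 and 9.02 CPM), the ribosomal RNA gene CT010467.1 (8549 and 3208 CPM) and Zfp979 (113 and 55.6 CPM). Kat6a was the only one of the 4 with the controls between the KO libraries, since both controls lay above both KO libraries for Scml2 and Zfp979 (89.8 and 229.7 CPM in control 1), and control 2 lay below both for CT010467.1 (3101 CPM). CT010467.1 was thus higher in the library labelled KO 1 than in the library labelled KO 2, as Kat6a was. It is a single gene, and the total share of ribosomal RNA was not computed. The part of ribosomal RNA in the Kat6a values was not tested. In the opposite direction 27 genes of at least 50 CPM differed at least 2-fold.

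**Figure D1:**
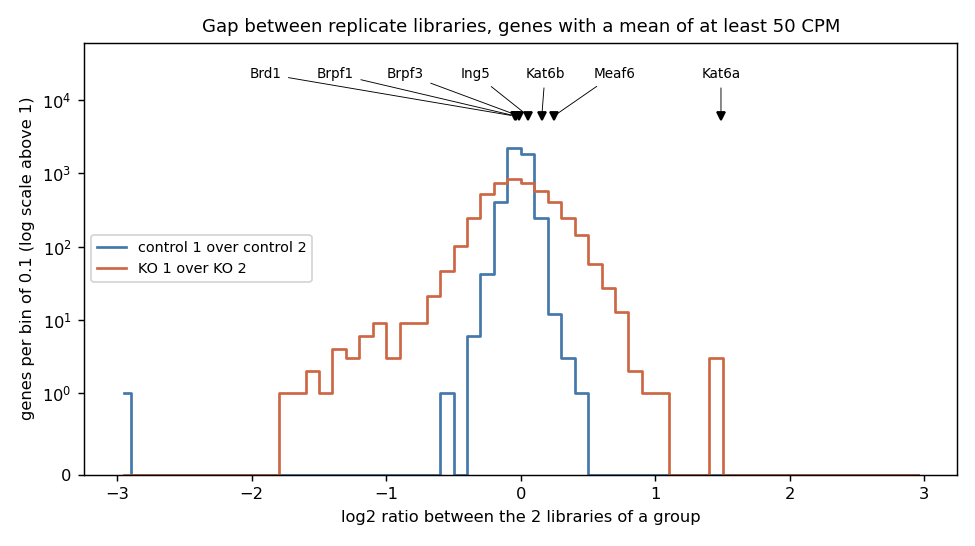
Number of genes (y axis, log scale above 1) by the log2 ratio between the 2 libraries of a group (x axis), for the 4760 tested genes whose mean reached 50 CPM, with ratios beyond 3 in either direction drawn in the end bins. Triangles mark the KO 1 over KO 2 ratio of each member, Meaf6 included although its mean is below 50 CPM: 6 members sit near the middle of the distribution, and Kat6a sits at its right end at 1.49.

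The genes around Kat6a did not share its pattern. Of the 5 nearest tested genes on each side, the log2 ratio between the KO libraries ran from -0.39 to 0.52 in 9, against 1.49 for Kat6a. The widest of these 9 was that of Ank1, an erythroid ankyrin gene which had no more than 39 counts in any library. The nearest gene upstream, Ap3m2, an adaptor subunit whose start lies 72.2 kb away, had 11.2 and 9.50 CPM in the controls and 9.07 and 7.57 CPM in the libraries labelled KO 1 and KO 2. Plat, which encodes tissue plasminogen activator, was the exception and moved the other way. Its level was 12.2 and 11.6 CPM in controls 1 and 2, 2.27 in the library labelled KO 1 and 5.86 in the library labelled KO 2, and its log2 fold change came to -1.56 ± 0.38 (SE; edgeR adjusted p = 0.044). The call of Plat was lost when no low-count filter was applied (adjusted p of 0.14 in edgeR) and kept in 11 of 15 settings. Over the 846 tested genes of chromosome 8 the median log2 ratio between the KO libraries was -0.04.

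**Figure D2:**
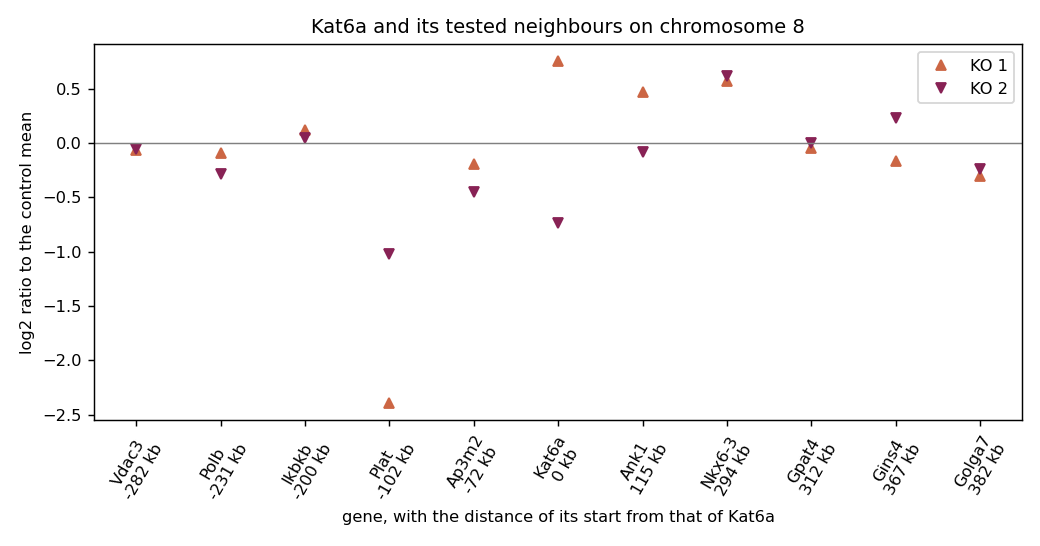
Log2 ratio of each KO library to the control mean (y axis) for Kat6a and the 5 nearest tested genes on each side, in order along chromosome 8 with the distance of each start from that of Kat6a (x axis, kilobases). Upward triangles are the library labelled KO 1 and downward triangles the library labelled KO 2; the 2 libraries part widely at Kat6a and, in the opposite order, at Plat.

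Kat6b, the paralog, rose in both KO libraries. The gene lies on the plus strand of chromosome 14, from 21481434 to 21672478. Control 1 had 349.7 CPM and control 2 had 342 CPM, against 538 CPM for the library labelled KO 1 and 483 CPM for the library labelled KO 2. Both KO libraries lay above both controls, at 1.55 and 1.40 times the control mean. The mean went from 346 ± 5.48 to 510.1 ± 38.9 CPM (SD, n = 2), and the log2 fold change came to 0.56 ± 0.09 (SE; edgeR adjusted p = 0.016). In the authors' deposited table the log2 fold change of Kat6b was 0.54 ± 0.12 (SE) with an adjusted p of 0.000105. The median log2 fold change over chromosome 14 was -0.01, and over the genes with a transcript GC content of 44.7% to 48.5%, the band that holds Kat6b, it was -0.08. An offset for GC content left Kat6b called, at 0.64 (edgeR adjusted p = 0.0063). The call ended without control replicate 1 (edgeR adjusted p = 0.085) or control replicate 2 (edgeR adjusted p = 0.10), where a single control library remained.

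Among the scaffold genes, Brpf3 and Brpf1 rose and Brd1 did not pass the test. BRPF1, BRPF3 and BRD1, which is also called BRPF2, are related proteins with a bromodomain and a PWWP domain that bind chromatin and tie the enzyme to its substrate; BRPF1 is the usual partner of KAT6A and KAT6B, while BRPF3 and BRD1 also serve the related enzyme KAT7. Of the 7 members, 3 were called higher (Kat6b, Brpf3 and Brpf1), against 5.76% of all tested genes called higher. The members called lower numbered 0, against 8.57% of all tested genes, and at that share a count of 0 among 7 is no result. Leaving out control replicate 1 or control replicate 2 left 0 members called higher, and leaving out the library labelled KO 1 or KO 2 left 5 and 6, since the control pair alone then set the spread. For 6 of the 7, all but Kat6a, both KO libraries lay above both controls, which held for 31.5% of all tested genes. Both KO libraries lay below both controls for 0 of the 7, against 32.8% of all tested genes. That 0 only restates the count of 6, since the KO libraries stood on either side of the controls for Kat6a. The median log2 fold change was 0.32 over the members and 0.01 over all tested genes.

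The title's interest in CpG islands is the reason for showing the promoters of the 3 genes called higher. The RefSeq promoter table matched 6 of the 7 members, all but Kat6a, in GRCm38.p6. Each sequence below starts 250 bases before a start of transcription in that table and stops before the next annotated exon of the gene in GENCODE, and CG dinucleotides are in capitals. For Kat6b this is an internal start: it lies 18.3 kb after the first base of the gene's span in GENCODE, and 2 annotated transcripts that begin further upstream run across the stretch, with none of its bases in an exon.
Kat6b promoter, GRCm38.p6, chr14:21499520-21499769, plus strand: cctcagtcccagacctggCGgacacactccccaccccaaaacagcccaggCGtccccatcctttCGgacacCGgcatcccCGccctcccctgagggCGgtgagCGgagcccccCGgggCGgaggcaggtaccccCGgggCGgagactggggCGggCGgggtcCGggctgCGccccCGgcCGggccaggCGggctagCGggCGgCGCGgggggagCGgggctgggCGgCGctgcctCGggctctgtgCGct
Brpf1 promoter, GRCm38.p6, chr6:113306887-113307136, plus strand: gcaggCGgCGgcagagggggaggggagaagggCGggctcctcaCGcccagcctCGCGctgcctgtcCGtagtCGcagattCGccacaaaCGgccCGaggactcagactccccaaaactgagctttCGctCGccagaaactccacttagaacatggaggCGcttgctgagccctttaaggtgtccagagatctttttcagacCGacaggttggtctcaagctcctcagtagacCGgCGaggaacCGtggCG
Brpf3 promoter, GRCm38.p6, chr17:28800876-28801089, plus strand: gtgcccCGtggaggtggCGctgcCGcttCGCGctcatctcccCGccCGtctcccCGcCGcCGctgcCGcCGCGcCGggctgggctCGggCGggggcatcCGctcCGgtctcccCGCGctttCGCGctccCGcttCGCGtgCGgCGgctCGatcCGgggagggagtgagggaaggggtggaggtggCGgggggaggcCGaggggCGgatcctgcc

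These stretches hold 27, 19 and 32 CG dinucleotides. Counted over whole windows of 250 bases before to 50 after the start, CG (which reads the same on both strands) occurred 32 and 34 times at the 2 starts of Kat6b in the table, 25 times at Brpf1 and 40 times at Brpf3. The members that were not called were as rich, with 36 at Brd1, 35 at Ing5 and 34 at Meaf6. The median over all 32851 promoter windows of this length in the table was 7, and 18.4% of them held at least as many as Brpf1 and 3.91% at least as many as Brpf3. The number of CG dinucleotides thus did not separate the called members from the others. These are counts of letters, and methylation and KAT6A binding were not measured in these libraries.

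Brpf3 lies on the plus strand of chromosome 17, from 28801090 to 28839949. It had 57.8 and 62.0 CPM in the controls and 86.1 and 86.8 CPM in the libraries labelled KO 1 and KO 2. The KO libraries were almost level with each other and lay above both controls, with means of 59.9 ± 3.02 and 86.4 ± 0.503 CPM (SD, n = 2). The log2 fold change came to 0.53 ± 0.09 (SE; edgeR adjusted p = 0.017), and 0.50 ± 0.13 (SE) with an adjusted p of 0.00117 in the authors' deposited table. It was no longer called without control replicate 1 or control replicate 2 (edgeR adjusted p = 0.20 and 0.077). Brpf3 has a transcript GC content of 56.0%, in the highest of 5 equal bands of genes, where the median log2 fold change was 0.23, and under the GC-content offset its own was 0.39 (edgeR adjusted p = 0.026).

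Brpf1 lies on the plus strand of chromosome 6, from 113307137 to 113324860. It had 118 and 116 CPM in the controls and 144 and 148 CPM in the libraries labelled KO 1 and KO 2. Again the KO libraries lay close together above both controls, 1.23 and 1.26 times the control mean. The log2 fold change came to 0.32 ± 0.08 (SE; edgeR adjusted p = 0.045), close to the threshold of 0.05. In the authors' deposited table it was 0.31 ± 0.12 (SE) with an adjusted p of 0.0550, on the other side of that threshold, and DESeq2 run here gave an adjusted p of 0.052. The call of Brpf1 also ended under the GC-content offset (log2 fold change 0.20, edgeR adjusted p = 0.095), without a low-count filter (edgeR adjusted p = 0.053) and without control replicate 1 or 2 (edgeR adjusted p = 0.44 and 0.46). Brpf1 and Brpf3 share exon positions with antisense or divergent noncoding genes on the opposite strand, over 255 bases (Gm15492) and over 272 and 119 bases (AC140278.1 and AC140278.2). The sources used here do not give the strand setting of the counting, so reads from those positions cannot be assigned with certainty.

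Brd1, on the minus strand of chromosome 15 from 88687034 to 88734233, was the most abundant scaffold gene and moved least. It had 213 and 210.1 CPM in the controls and 215 and 222 CPM in the libraries labelled KO 1 and KO 2. All 4 libraries lay within a narrow range, with the KO libraries slightly above. The log2 fold change came to 0.05 ± 0.08 (SE; edgeR adjusted p = 0.705), and it was -0.02 under the GC-content offset.

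**Figure D3:**
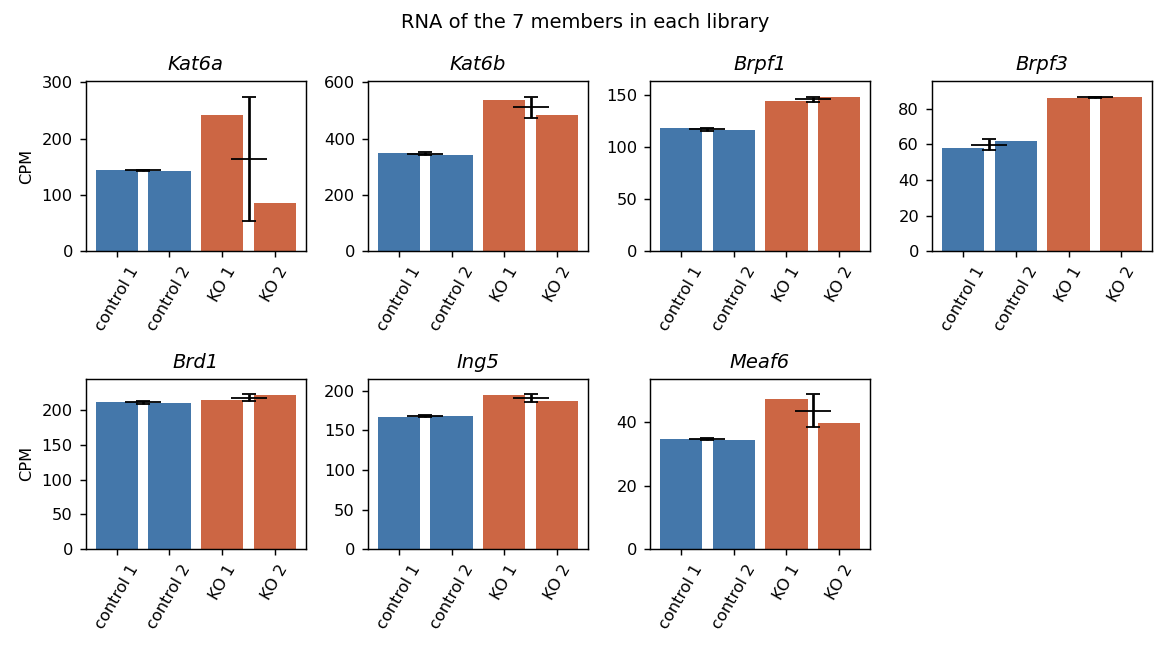
CPM of each of the 7 members (y axis, from 0, a separate scale for each gene) in the 4 libraries (x axis); bars are single libraries, blue for control and orange for the libraries labelled KO, and black marks give the group mean ± SD (n = 2). The KO bars stand above the control bars for 6 genes, while the Kat6a bars of the KO libraries lie on either side of the controls, at 242 and 86.4 CPM.

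The accessory subunit genes were higher in both KO libraries but did not pass the test. ING5 carries a PHD finger that reads methylated lysine on histone H3, and MEAF6 is a small subunit shared with the KAT7 and KAT5 complexes. Ing5, on chromosome 1 from 93803965 to 93822101, had 168 and 169 CPM in the controls and 194 and 187 CPM in the libraries labelled KO 1 and KO 2. Its groups did not overlap, and its log2 fold change came to 0.18 ± 0.08 (SE; edgeR adjusted p = 0.159). Meaf6, on chromosome 4 from 125085134 to 125113238, had 34.9 and 34.4 CPM in the controls and 47.3 and 39.9 CPM in the libraries labelled KO 1 and KO 2. The library labelled KO 1 lay further from the controls, and the log2 fold change came to 0.33 ± 0.12 (SE; edgeR adjusted p = 0.0994). Meaf6 and Brpf1 thus had nearly the same fold change, and the gap between the KO libraries was 1.19-fold for Meaf6 and 0.974-fold for Brpf1 (KO 1 over KO 2). Without the library labelled KO 1 or KO 2, with the spread taken from the controls alone, Ing5 was called (log2 fold changes 0.15 and 0.21), as was Meaf6 (0.20 and 0.45).

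**Figure D4:**
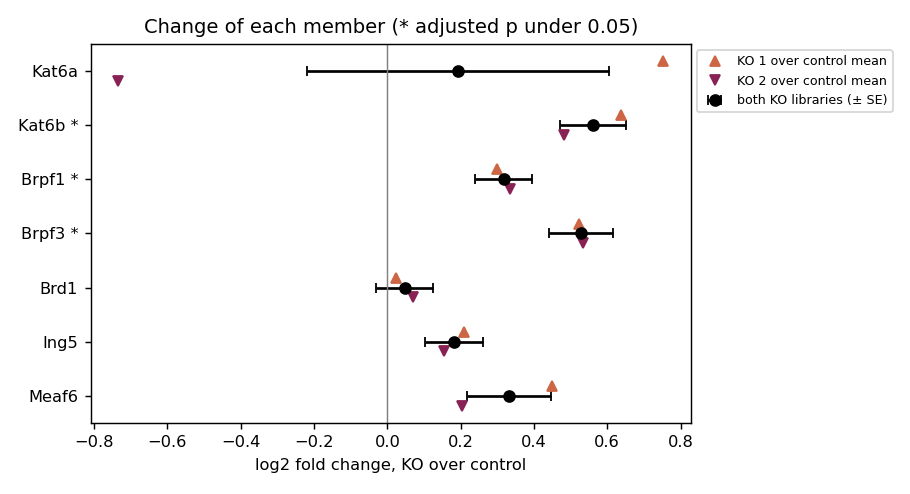
Log2 fold change, KO over control (x axis), of each member (y axis); black points with bars are the edgeR estimate over both KO libraries ± SE, and triangles are the single libraries labelled KO 1 and KO 2 against the control mean. The triangles lie close together for Brpf1, Brpf3, Brd1 and Ing5 and furthest apart for Kat6a, and an asterisk marks the 3 members called higher.

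Levels of different genes were compared as CPM per kilobase of annotated exon. In the controls Ing5 stood highest, at 35.6 ± 0.183 (SD, n = 2), followed by Brd1 (25.1 ± 0.205), Kat6b (20.6 ± 0.326), Brpf1 (17.3 ± 0.221), Kat6a (15.7 ± 0.142), Brpf3 (6.92 ± 0.349) and Meaf6 (6.65 ± 0.0598). Each neighbouring pair in this order was further apart than its spread, except Brpf3 and Meaf6, whose libraries overlapped (6.67 and 7.17 against 6.69 and 6.61). The order depends on the length used, because the annotated exons of Kat6b add up to 16.8 kb and its longest coding transcript to 7.70 kb. By the longest coding transcript, a length chosen after seeing the data, Kat6b led with 44.9, ahead of Brd1 (41.0) and Ing5 (37.1), and the other 4 kept their order. Kat6b lay above Kat6a in every library under either length.

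The paralog sum differed between the libraries labelled KO 1 and KO 2, more through Kat6a than through Kat6b. In them Kat6a stood at 26.4 and 9.41 CPM per kilobase of exon, and Kat6b at 32.0 and 28.7. Per kilobase of exon, Kat6a and Kat6b together stood at 36.5 and 35.9 in the controls, 58.4 in the library labelled KO 1 and 38.1 in the library labelled KO 2. The first of these KO values is 1.61 times the control mean and the second 1.05 times. By the longest coding transcript the sum was 61.3 and 60.1 in the controls, 96.4 in the library labelled KO 1 and 72.2 in the library labelled KO 2, the last 1.19 times the control mean, and as CPM without a length it was 1.16 times. The sum in the library labelled KO 2 thus lay above both controls on each scale, by an amount that depends on the length given to Kat6b, although its Kat6a was the lowest of all. Per kilobase of exon, Kat6a made up 43.1% and 43.4% of the sum in the controls, 45.2% in the library labelled KO 1 and 24.7% in the library labelled KO 2. As a share of the raw counts of both genes, with exact binomial intervals of 95%, Kat6a held 29.3% (28.6% to 29.9%) and 29.5% (28.8% to 30.1%) in the controls. It held 31.1% (30.5% to 31.7%) in the library labelled KO 1 and 15.2% (14.6% to 15.8%) in the library labelled KO 2. The share was therefore near the control value in the library labelled KO 1, where both genes were higher, and about 18.5 percentage points below it per kilobase in the library labelled KO 2, where Kat6a was lower and Kat6b higher. The difference between the group means was -8.28 percentage points, and it became 1.99 without the library labelled KO 2. Kat6b exceeded Kat6a per kilobase by 1.32-fold and 1.31-fold in the controls, 1.21-fold in the library labelled KO 1 and 3.05-fold in the library labelled KO 2. Sums and shares over chosen genes were not tested.

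**Figure D5:**
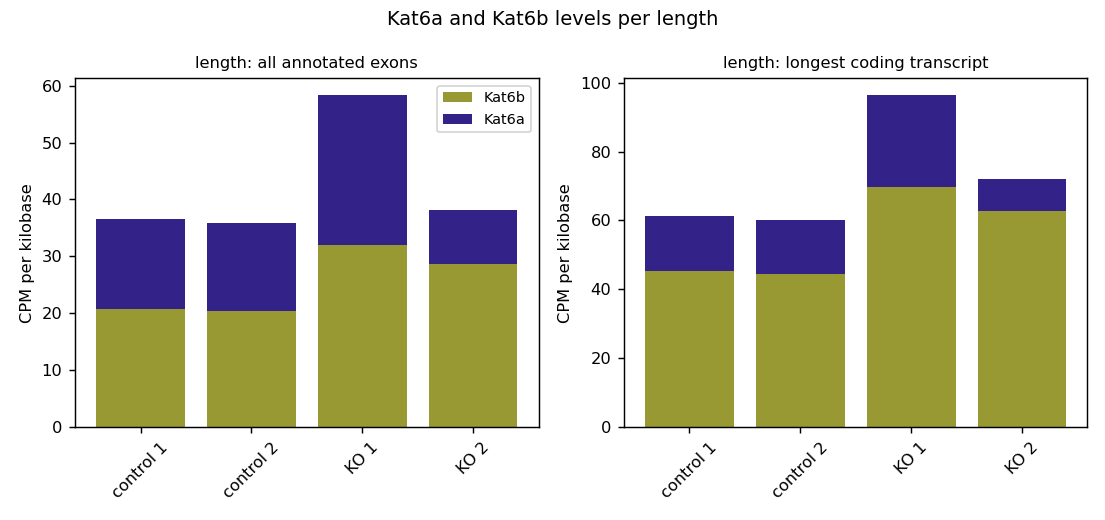
Stacked levels of Kat6b and Kat6a in CPM per kilobase (y axis, from 0) in the 4 libraries (x axis), divided by the length of all annotated exons (left) or of the longest coding transcript (right). The stack of the library labelled KO 1 is the tallest in both panels, and Kat6a is the smallest part in the library labelled KO 2.

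The scaffold sum was steadier than the enzyme sum. Brpf1, Brpf3 and Brd1 together stood at 49.4 and 49.3 CPM per kilobase in the controls and at 56.8 and 58.2 in the libraries labelled KO 1 and KO 2, which is 1.15 and 1.18 times the control mean. Within it the share of Brd1 went from 51.0% ± 0.336 to 45.2% ± 0.201, that of Brpf1 from 35.0% ± 0.393 to 37.4% ± 0.0138 and that of Brpf3 from 14.0% ± 0.729 to 17.4% ± 0.214 (SD, n = 2). In each of these shares the groups did not overlap. For single genes such separation was common, at 31.5% of tested genes with KO higher and 32.8% with KO lower. These shares also add up to the whole, so they are not independent of one another. The ratio of the enzyme sum to the scaffold sum was 0.740 and 0.728 in the controls, 1.03 in the library labelled KO 1 and 0.654 in the library labelled KO 2, so the controls lay between the KO libraries. That order depends on the length: by the longest coding transcript the ratio was 0.831 and 0.818 in the controls, 1.15 in the library labelled KO 1 and 0.841 in the library labelled KO 2, with both KO libraries above both controls. The sum of Ing5 and Meaf6 was 42.1 and 42.3 CPM per kilobase in the controls and 50.2 and 47.2 in the libraries labelled KO 1 and KO 2.

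Among the other MYST enzymes and their partners, Jade3 and Jade2 fell. Of 7 relatives listed, 6 were tested, and 2 were called lower and 0 higher, against 8.57% and 5.76% of all tested genes. At that share a count of 0 among 6 is no result about the list. The median log2 fold change was -0.06, against 0.01 over all tested genes. The gene of KAT7, which shares BRPF scaffolds, ING5 and MEAF6 with the KAT6 enzymes, had 451 and 456 CPM in the controls and 408 and 404 CPM in the libraries labelled KO 1 and KO 2. Its groups did not overlap, but its log2 fold change of -0.16 ± 0.08 (SE) did not pass the test (edgeR adjusted p = 0.196). The 2 that fell encode JADE scaffolds, the alternative partners of KAT7. Jade1, a far more abundant JADE gene on the list, had 918 and 879 CPM in the controls. It had 998 and 837 CPM in the libraries labelled KO 1 and KO 2. The log2 fold change of Jade1 was 0.03 ± 0.11 (SE) and did not pass the test (edgeR adjusted p = 0.864). Jade3 went from 107.5 ± 0.304 to 57.8 ± 5.16 CPM (SD, n = 2), with an edgeR adjusted p of 0.0083. Jade2 went from 31.1 ± 3.86 to 18.1 ± 3.64 CPM (SD, n = 2), with an edgeR adjusted p of 0.032. Jade2 was not called once control replicate 2 was left out (edgeR adjusted p = 0.13). Ing4 had 0 or 1 count in each library and was not tested. The strand setting of the counting is not given, so this does not show that Ing4 was silent.

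MLL proteins and menin act with KAT6A at Hox genes. Of 8 genes of MLL complexes tested, 2 rose and 0 fell. Among all tested genes 5.76% were called higher and 8.57% lower, and at that share a count of 0 among 8 is no result. The median log2 fold change was 0.11, against 0.01 over all tested genes. Wdr5, a core subunit, had 422 and 445 CPM in the controls and 612 and 679 CPM in the libraries labelled KO 1 and KO 2, and its log2 fold change came to 0.58 ± 0.09 (SE; edgeR adjusted p = 0.015). Kmt2b, an MLL methyltransferase with a CXXC domain, had 182 and 193 CPM in the controls and 228 and 246 CPM in the libraries labelled KO 1 and KO 2, and its log2 fold change came to 0.34 ± 0.09 (SE; edgeR adjusted p = 0.049). Both calls ended without either control replicate (with edgeR adjusted p-values of 0.056 to 0.51), and Kmt2b lost its call also under the GC-content offset (log2 fold change 0.14, edgeR adjusted p = 0.19). Kmt2a, Men1 and Psip1, whose products bind one another, had log2 fold changes of 0.04, 0.03 and 0.02, and none of them passed. The other core subunit genes listed, Ash2l, Rbbp5 and Dpy30, had log2 fold changes of -0.15, 0.22 and 0.17 and did not pass either.

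The genes most like Kat6a and Kat6b over the 4 libraries were found among 12690 candidates by the Euclidean distance between log2 CPM values centred on each gene's mean. The 4 genes nearest to Kat6a were AI593442, Gfra1, Zfp287 and Zfp820, at distances of 0.0890 to 0.199, against a median distance of 1.12 over the candidates. Of these, Zfp820, a zinc finger gene, had 24.9 and 25.1 CPM in the controls and 35.9 and 13.5 CPM in the libraries labelled KO 1 and KO 2. Gfra1, which encodes a GDNF receptor subunit, was low. It had 2.93 and 2.65 CPM in the controls and 4.83 and 1.71 CPM in the libraries labelled KO 1 and KO 2. AI593442 and Zfp287 were also low, with no more than 2.89 and 4.30 CPM in any library. Nearest to Kat6b were Dop1b, Dglucy, Zfp870, Plekhn1 and Inppl1, at distances of 0.0260 to 0.0396 against a median of 0.633. All 5 were themselves called higher, with log2 fold changes of 0.55 to 0.59, which the choice by likeness to Kat6b fixes and which is given as a description only. They were no longer called without either control replicate (edgeR adjusted p from 0.067 to 0.30), and under the GC-content offset Plekhn1 and Inppl1 were not called (edgeR adjusted p = 0.063 and 0.070). Over 4 libraries such likeness describes these samples only.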

How the data were processed

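Polyadenylated RNA was sequenced in 4 libraries with a stranded kit, per the labels' protocols. The authors deposited whole-number counts per gene symbol. They also deposited normalized counts, a signal equal to the count divided by 1 factor per library (0.848 to 1.15). Per the submitters' processing notes, featureCounts and DESeq2 were used (aligner, genome build, strand setting and versions: not given in the sources used here). The authors' deposited comparison has no header, and its columns were read from their values and order as mean signal, log2 fold change, standard error, Wald statistic (score), p-value and adjusted p-value; whether its fold changes were shrunk is not stated.

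Groups and replicate numbers came from the titles. Over genes reaching 20 pooled counts, the mean chi-square was 3.70 between controls and 34.4 between KO libraries. The 2 libraries of a group were thus not copies of each other. Libraries of different groups were not compared in this way. The test used edgeR 4.0.16 in R 4.3.3: filterByExpr by group, TMM scaling and the robust quasi-likelihood test with group as the only term. P-values were adjusted by Benjamini-Hochberg over 16112 genes, with a threshold of 0.05. SE is the fold change over the root of F. CPM used scaled library sizes. Positions, exon lengths and GC content came from GENCODE M21 (GRCm38), which held 97.3% of the symbols. The procedure was tested on simulated data.

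Alternatives were RLE, upper quartile or no scaling, other low-count filters, DESeq2 1.42.0, limma-voom (limma 3.58.1), the likelihood ratio test, a replicate block, a GC-content offset (lowess span 0.3), both together, each library left out, and, for sums, other lengths. Python 3.11.15 with scipy 1.17.1 and matplotlib 3.10.9 gave intervals and plots. Named genes were the 7 members, the lists of MYST relatives and MLL partners, the 5 tested neighbours on each side of Kat6a, and the 5 genes most like Kat6a and Kat6b with a mean of at least 1 CPM, leaving out predicted models. One gene that this rule names is not reported here. The members and lists were chosen with earlier results of these data known.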

Additional observations from a re-analysis of the deposited data

How the results depend on the processing

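The number of genes called higher was 928 and lower 1381. It was 1666 and 2175 with the likelihood ratio test, and 254 to 4020 and 648 to 4400 with 1 library left out, highest without a KO library, when the spread came from the control pair alone. Of the 7 members, 3 were called higher under each scaling, with limma-voom, the likelihood ratio test, a minimum of 1 CPM in 2 libraries and the replicate block; Kat6b and Brpf3 were called in 13 of the 15 other settings and Brpf1 in 9. With 1 library left out the members called higher numbered 0 to 6 and those called lower 0 to 1, the 1 being Kat6a without the library labelled KO 1. The log2 fold change of Kat6a was then -0.74, and 0.75 without the library labelled KO 2. That of Brd1 was -0.0213 with the GC-content offset, with or without the block. The Kat6a share difference was -18.5 to 1.99 percentage points with 1 library left out, the paralog sum ratio 1.05 to 1.61 and the scaffold sum ratio 1.15 to 1.18. With the replicate number as a block, 1613 genes were higher and 2147 lower. The labels do not say that a number marks a shared batch. The differences between replicates 1 and 2 of the groups correlated across genes at 0.09. With 1 such difference per group, this value cannot decide whether libraries of the same number share a batch. Depth limited no member: the lowest, Meaf6, had at least 1097 counts in each library.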
